A study of Mus musculus with 54 samples.

Results

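Among 55385 annotated genes in the RNA-seq counts of mouse naive CD4+ T cells, 83 were lower after 20 h of stimulation in wild-type (WT) cells and higher after the same 20 h in cells without the adaptor LAT. They were chosen on CPM, the read count of a gene scaled to a library total of 1000000. Of the 9932 genes with a mean of 5 CPM or more in some group of the LAT experiment, the 83 had a WT difference, 20 h minus 0 h, of -1 or less and a Lat-/- difference of 1 or more, both as differences of group means of log2(CPM + 1). A WT difference of -1 or less was seen in 1899 of the 9932 genes and a Lat-/- difference of 1 or more in 258. Genes at or above 1 in both genotypes numbered 95, those at or below -1 in both 159, and those with the opposite combination (up in WT, down in Lat-/-) 16. The differences that chose the genes came from the 0 h and 20 h libraries of the LAT experiment, and every value that rests on those libraries is given below as a description without a test. The limit of 5 CPM was applied to all 6 groups, 4 h included, and 1 of the 83 genes, Cldn10, passed it only through a 4 h group (7.08 CPM in WT cells, against 3.83 CPM in the highest of its 0 h and 20 h groups).

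The cells were naive CD4+ T cells from pooled lymph nodes and spleens of mice of 8 to 10 weeks on a C57BL/6 background. They were kept at 0 h or stimulated for 4 h or 20 h with plate-bound anti-CD3 at 3 µg/ml and soluble anti-CD28 at 1 µg/ml. In the LAT experiment the mice carried a floxed Lat allele with a human diphtheria toxin receptor reporter (Lat fl-dtr) and the maT-Cre transgene, which acts in mature T cells. WT cells of this experiment were sorted as reporter positive and Lat-/- cells as reporter negative, so both carry the modified allele and the Cre, and those called WT are the cells in which the allele was not deleted. The CD5/CD6 experiment used Cd5-/-, Cd6-/-, doubly deficient Cd5-/-Cd6-/- and WT mice, from which naive cells were enriched with a magnetic kit instead of a sorter. Each of the 6 LAT groups and 12 CD5/CD6 groups has 3 libraries. The study describes the 3 samples of a 0 h or 20 h condition as prepared independently. Neither it nor the labels says whether they came from separate animals, so p-values rest on the spread between these libraries, which may be technical. The fit estimates that spread in part from all genes together, so the p-value of a gene does not measure how closely its own libraries agree.

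LAT is the membrane scaffold that the kinase ZAP-70 phosphorylates after engagement of the T cell receptor (TCR) and on which the calcium and RAS branches of the signal are assembled. Naive T cells are kept in a resting, recirculating state by a program in which FOXO transcription factors and KLF2 maintain the interleukin-7 receptor (IL-7R), for survival, and the sphingosine-1-phosphate receptor S1PR1, for exit from lymph nodes. TCR and CD28 signals normally shut this program down through PI3K and AKT, which move FOXO proteins out of the nucleus. Among the 83 genes were such resting-state genes, a group of interferon-induced genes, and stress, signalling, glycan and noncoding genes.

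Library totals were between 17784644 and 28501095 counts in the LAT experiment and between 20554354 and 45222554 in the CD5/CD6 experiment. Lat itself stood at 222 to 313 CPM in the WT 0 h libraries of the LAT experiment and at 11.4 to 20.3 CPM in the Lat-/- 0 h libraries. WT cells of the CD5/CD6 experiment had more Lat RNA, at 735 to 824 CPM at 0 h. At 20 h, Lat was at 97.1 to 107 CPM in WT cells of the LAT experiment and at 459 to 629 CPM in those of the CD5/CD6 experiment. The WT cells of the LAT experiment were thus low in Lat beside the other WT cells, and the cause was not tested. CD4 T cell markers were high in every LAT library, with a summed level of 7696 to 15175 CPM. In WT cells the sum went from 12754 to 15175 CPM over the 0 h libraries to 7696 to 7853 at 20 h. In Lat-/- cells it was at 12347 to 13150 CPM and then 11572 to 12977. CPM is a share of the library total, so a lower CPM need not be less RNA per cell. A pair of 0 h libraries in the CD5/CD6 experiment went against their labels: the library labelled Cd5-/- number 2 had 822 CPM of Cd5 and 375 CPM of Cd6, and the library labelled Cd6-/- number 2 had 194 CPM of Cd5 and 1350 CPM of Cd6. For the 20 h responses of Cd5-/- and Cd6-/- cells, the counts of calls, medians and changes of Iigp1 and Irgm1 are given with and without them. The pair also entered the fit shared by the other CD5/CD6 comparisons, for which leaving out this pair alone was not run. In the LAT experiment, WT 4 h library 3 lay nearer to the 0 h libraries than the other WT 4 h libraries for many of the 83 genes, and Lat-/- library 2 at 4 h and at 20 h was low for the interferon-induced ones.

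Of the 83 genes, 69 are protein-coding, 5 are antisense RNAs, 4 are lincRNAs, 3 are processed transcripts, 1 is a pseudogene (Bambi-ps1) and 1 is a bidirectional promoter lncRNA (Gm49492). They lie on 19 chromosomes, with 10 on chromosome 7 and 9 on chromosome 2. Another annotated gene overlaps 35 of them, 25 on the opposite strand. The strand setting of the counting is not given in the sources used here, so their reads may be shared with the overlapping gene. Of the 83, 14 lie within 100 kb of another of the 83, as the pairs S1pr1 and Gm9889, Cnga1 and Nipal1, Pou6f1 and Gm49492, Gm14085 and Bambi-ps1, Trim5 and Trim34a, Tnfrsf26 and E230032D23Rik, and Tent5c and Gm12474.

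Promoter sequence is shown for the interferon-induced genes, which include the exceptions to the common pattern in the CD5/CD6 experiment, and for the pair of FOXO-program genes in which a FOXO motif was found. Windows of 250 bases before to 50 after the gene start (RefSeq, GRCm38.p6) were held for 62 of the 83 genes and for 27025 genes in all. Motifs and GC content were taken from the 250 bases before the start alone. The interferon-stimulated response element was searched as TTTCNNTTTC on both strands, a motif added after the values had been seen. Capitals mark the match, which on some strands reads as its reverse complement, and all are written 5′ to 3′ along the gene. 
Irgm1, chr11:48871431-48871460, minus strand: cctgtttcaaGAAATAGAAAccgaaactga
Irgm2, chr11:58214893-58214942, plus strand: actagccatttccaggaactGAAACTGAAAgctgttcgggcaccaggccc
Tgtp1, chr11:48992294-48992343, minus strand: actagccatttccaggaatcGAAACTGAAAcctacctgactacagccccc
Ifit1bl1, chr19:34599428-34599470, minus strand: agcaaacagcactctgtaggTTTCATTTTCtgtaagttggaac
Trim5, chr7:104288126-104288175, minus strand: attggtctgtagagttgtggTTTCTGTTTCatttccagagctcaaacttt

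Of the 6 interferon-induced genes with a window, these 5 hold the motif and Trim34a does not. It was found in 11.3% of the 62 genes and in 3.46% of all genes with a window, counting a match in any window of a gene. The windows stand before RefSeq starts, and 5 of the 7 stretches printed here lie inside the gene as GENCODE bounds it, downstream of its outermost start. The Irgm1 stretch begins 223 bases inside and touches an annotated exon. The stretches of Tgtp1, Ifit1bl1 and Bbc3 begin 1829, 2486 and 1681 bases inside. The Irgm2 stretch begins 15275 bases inside a gene that overlaps Igtp, and these positions do not show which of the overlapping genes starts there. A FOXO motif, GTAAACA or its shorter form TAAACA, was searched in the same way, and the matches in 2 of the 7 FOXO-program genes with a window are shown with capitals marking the match.
Bbc3, chr7:16310074-16310120, plus strand: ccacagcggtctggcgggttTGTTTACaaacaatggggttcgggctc
Trib3, chr2:152344260-152344305, minus strand: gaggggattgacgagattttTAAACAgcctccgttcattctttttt

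GTAAACA was present in 4.84% of the 62 genes and in 3.54% of all genes with a window, and TAAACA in 21.0% and 13.5%. The most frequent motif was the GC box GGGCGG, in 59.7% against 35.4%, and the median GC content was 59.6% against 52.0%. The remaining motifs searched were CACGTG (8.06% against 6.86%), GGAAGT (19.4% against 22.2%), TGACGT (4.84% against 7.29%), GGGTGTG (8.06% against 7.9%), TTTCCA (14.5% against 20.9%) and the interferon-gamma element TTCNNNGAA (11.3% against 8.13%, also added after the values had been seen).

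The values that chose the genes ran as follows. The WT difference, 20 h minus 0 h, had a median of -1.84 and ran from -4.70 (Il7r) to -1.001 (Bach1). In Lat-/- cells the median was 1.28, and Cd101, an inhibitory surface protein, had the highest value at 2.30. Every WT 20 h library was below every WT 0 h library for 82 of the 83 genes (37.2% of the 9932), every Lat-/- 20 h library was above every Lat-/- 0 h library for 80 (18.8%), and both held for 79 (7.21%). Just inside the Lat-/- limit lay Mtss1 (1.01), Gm16534 (1.02) and Gm9889 (1.02), and just outside it Ust, Ldlrad4 and Thra (each 0.99). At the WT limit, Bach1 (-1.001), Bbc3 (-1.05) and Irgm2 (-1.13) were inside and Camk2n1 (-0.96), Galnt9 (-0.96) and Kcnip2 (-0.95) outside. At 0 h the median difference, Lat-/- minus WT, was -0.005, and 59 of the 83 genes differed there by less than 0.5. The 5 that differed by 1 or more were Itih5 (-2.60), Cldn10 (-1.46), Ncmap (-1.12), Gm14085 (1.10) and Pcsk1 (1.11).

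**Figure D1:**
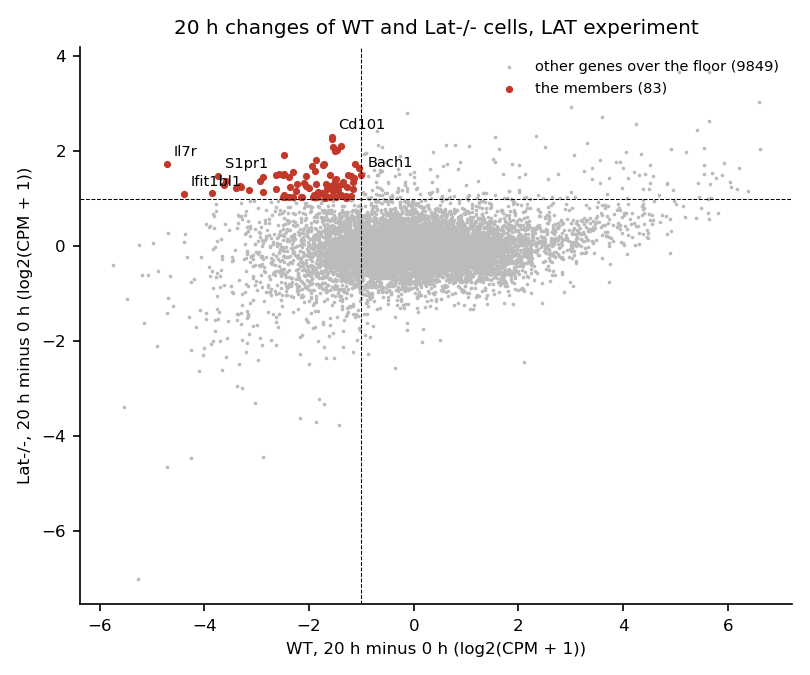
Difference 20 h minus 0 h of the group means of log2(CPM + 1) in the LAT experiment, WT on the x axis and Lat-/- on the y axis, for the 83 genes (red) and the other 9849 genes over the CPM limit (grey), with the limits of the choice at -1 and 1 as dashed lines. The red points fill the upper left corner by construction, and Il7r lies farthest to the left among them.

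By group mean, 69 of the 83 genes were highest in Lat-/- cells at 20 h, 10 in Lat-/- cells at 4 h (Tgtp1 and Ifngr1 among them), 3 in WT cells at 4 h and 1, Itih5, in WT cells at 0 h. The 4 h mean of Lat-/- cells exceeded their 20 h mean for 12 genes: Rflnb, Pou6f1, Ncmap, Ifngr1, Tgtp1, Siah3, Rhob, Nipal1, Bbc3, Bcl6, Cldn10 and Tsc22d1. The median difference, 4 h minus 0 h, was -0.81 in WT and 0.72 in Lat-/- cells. WT 4 h libraries were all below the WT 0 h libraries for 37 genes (40.3% of the 9932), and Lat-/- 4 h libraries all above the Lat-/- 0 h libraries for 51 (22.0%), and both held for 13 (2.39%). Outside the 83, the genes whose 6 group means tracked the average standardized profile of the 83 most closely were Tnks2 (Pearson r = 0.993 over the 6 means), Smad1 (0.992), Pcmtd1 (0.991), Zmym5 (0.990) and Siah1a (0.989), a description over means that share their libraries with the choice.

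**Figure D2:**
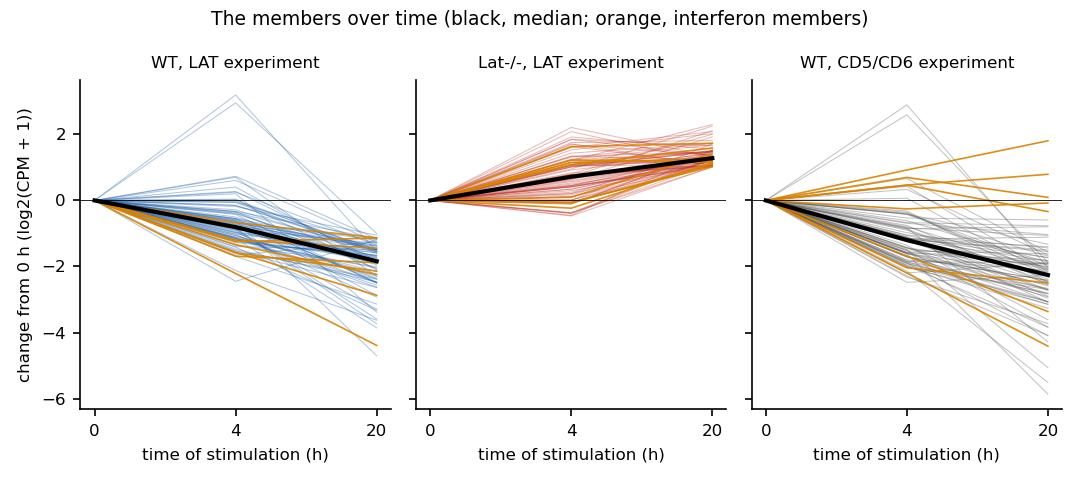
Time course of the 83 genes in WT and Lat-/- cells of the LAT experiment and in CD5/CD6-experiment WT cells, as change of the group mean of log2(CPM + 1) from 0 h, with 0, 4 and 20 h drawn at equal spacing on the x axis, 1 line a gene, interferon-induced genes in orange and the median in black. In the LAT experiment WT ended at a median of -1.84 and Lat-/- at 1.28, and at 4 h the medians were -0.81 and 0.72.

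Receptors of the resting T cell are described first. Il7r (chr15:9505788-9530176, minus strand), the IL-7 receptor alpha chain, was at 618, 569 and 647 CPM in the 3 WT libraries at 0 h, at 276, 324 and 699 at 4 h and at 17.5, 16.7 and 38.5 at 20 h. In Lat-/- cells Il7r was at 559, 648 and 638 CPM at 0 h, at 1304, 1589 and 1713 at 4 h and at 1868, 2374 and 1885 at 20 h. WT and Lat-/- libraries overlapped at 0 h and were apart at 4 h and 20 h, and WT 4 h library 3 had stayed at the 0 h level. S1pr1 (chr3:115710433-115715072, minus strand), the receptor that lets T cells leave lymph nodes, went from 792, 692 and 876 CPM in WT at 0 h to 307, 352 and 731 at 4 h and 56.9, 56.3 and 60.8 at 20 h. Its Lat-/- values were 796, 750 and 837 CPM, then 1751, 1915 and 1907, then 2190, 2580 and 1914. No Lat-/- library fell below its 0 h range at either time.

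Ifngr1 (chr10:19591949-19610229, plus strand), the ligand-binding chain of the interferon-gamma receptor, peaked at 4 h in Lat-/- cells. It stood at 195, 232 and 237 CPM at 0 h, 940, 920 and 1243 at 4 h and 663, 547 and 467 at 20 h. WT cells had 194, 230 and 221 CPM at 0 h, 168, 170 and 374 at 4 h and 49.8, 47.7 and 50.3 at 20 h. All the Lat-/- 4 h libraries of Ifngr1 were thus above all WT libraries of any time. Tnfrsf26, a decoy-type TNF receptor family member, was at 77.1, 71.3 and 90.9 CPM in Lat-/- cells at 0 h and at 226, 228 and 209 at 20 h, and in WT cells at 79.8, 78.6 and 92.6 and then 17.1, 13.1 and 15.4. F2rl1, a protease-activated G protein-coupled receptor, showed the same order, with 175, 234 and 166 CPM in Lat-/- and 6.47, 6.67 and 5.44 CPM in WT cells at 20 h from 61.2 to 82.3 CPM over the 0 h libraries of both genotypes.

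Nutrient-stress and survival genes linked to FOXO or p53 made up a second set. Sesn1, a sestrin that restrains mTORC1, went from 147, 138 and 165 CPM to 52, 50.6 and 56.2 in WT cells between 0 h and 20 h and from 121, 132 and 134 to 274, 317 and 312 in Lat-/- cells. Ccng2, a cyclin of resting cells, was at 20.9, 18.8 and 20.7 CPM in WT and at 262, 259 and 245 in Lat-/- cells at 20 h, and Klhl24 at 30.8, 34.2 and 26.5 against 293, 289 and 216. For each of these genes the 20 h libraries of the genotypes were separated by a wide margin, and the 0 h ranges overlapped for Ccng2 and Klhl24, while Sesn1 was slightly lower in Lat-/- cells at 0 h. Crebrf, a regulator of the unfolded protein response, was at 23.3, 23.7 and 22 CPM in WT and 360, 350 and 268 in Lat-/- cells at 20 h. Trib3, a pseudokinase induced by ATF4, stood at 3.44, 4.72 and 6.51 against 64.2, 83.1 and 79 CPM at the same time. Bbc3, which encodes the pro-apoptotic BH3-only protein PUMA, reached 85.6, 74.9 and 30.9 CPM in Lat-/- cells at 4 h from 14.5, 14.4 and 17.8 at 0 h, and was at 44.6, 54.1 and 54.2 at 20 h. The Bbc3 levels in WT cells were 22.9, 36.4 and 23.2 CPM at 0 h, above all Lat-/- 0 h libraries, and 10.5, 13.3 and 13.7 at 20 h. Trp53inp1, a p53-induced autophagy gene, stood at 402, 476 and 452 CPM in WT and 676, 551 and 672 in Lat-/- cells at 4 h and 136, 125 and 100.7 against 822, 755 and 644 at 20 h.

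Bcl6 and Bach1, which encode transcriptional repressors, stood above their 0 h levels in both genotypes at 4 h before they separated. Bcl6 was at 29.7, 17.5 and 25.1 CPM in WT at 0 h, at 237, 247 and 192 at 4 h and at 7.32, 6.07 and 9.26 at 20 h, against 23.5, 23.2 and 22.7, then 113, 80.6 and 114, then 63.2, 44 and 53 in Lat-/- cells. Bach1, a heme-regulated repressor of the antioxidant response, was at 44.6, 18.2 and 57.7, then 268, 323 and 274, then 15.1, 16.6 and 21.8 CPM in WT cells, and at 44.6, 42.7 and 58.9, then 112, 74.2 and 116, then 145, 155 and 117 CPM in Lat-/- cells. For both genes WT was the higher genotype at 4 h and the lower at 20 h, with no overlap of libraries at either time.

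Ubiquitin ligase and RNA decay genes included Klhl6, a cullin adaptor of lymphocytes, at 96.5, 108 and 84 CPM in WT and 636, 736 and 629 in Lat-/- cells at 20 h. Znrf2 stood at 131, 138 and 132 against 604, 682 and 552 CPM, and the RNA-binding protein gene Mex3b at 7.23, 7.41 and 8.14 against 68.8, 76 and 46.4. Dtx4, a ligase of the Deltex family that acts on NOTCH signalling, was at 0.58, 1.42 and 1.91 against 34.2, 32.5 and 33.3 CPM, and Siah3 at 0.179, 0.0374 and 0.14 against 12.5, 14 and 10. Among glycan enzymes, the sialyltransferase gene St8sia6 was at 67.4, 69.7 and 56.1 against 811, 940 and 522 CPM and the lysosomal arylsulfatase gene Arsb at 28.7, 30.4 and 26.1 against 197, 253 and 148. In each of these 7 genes the Lat-/- 20 h libraries were above every WT library of any time.

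Rgs10, which encodes a regulator of G protein signalling, was at 83.9, 85.9 and 73 CPM in WT and 626, 574 and 488 in Lat-/- cells at 20 h. Tent5c, a noncanonical poly(A) polymerase gene, was at 55.4, 57.3 and 57.6 against 780, 907 and 742 CPM, and Rflnb, a filamin-interacting regulator, at 33.6, 32.2 and 36.3 against 908, 1115 and 717. Tdrp (26.6, 25 and 30.4 against 595, 669 and 529 CPM), Ttyh3, a chloride channel family member (91.9, 99.9 and 85.7 against 620, 695 and 562), and Tmem71 (44.7, 40.7 and 43.8 against 617, 647 and 522) showed the same separation. Cnga1 and the POU-domain factor gene Pou6f1 had some of the largest gaps between the genotypes, with 0.625, 0.487 and 1.12 against 54.3, 59.3 and 48.1 CPM and 3.79, 3.93 and 5.35 against 213, 200 and 145 CPM. Bambi-ps1, a pseudogene of the TGF-beta pseudoreceptor gene Bambi, was at 7.41, 7.64 and 8.47 against 151, 179 and 184 CPM. None of these genes had a WT 20 h library inside the range of the Lat-/- 20 h libraries.

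**Figure D3:**
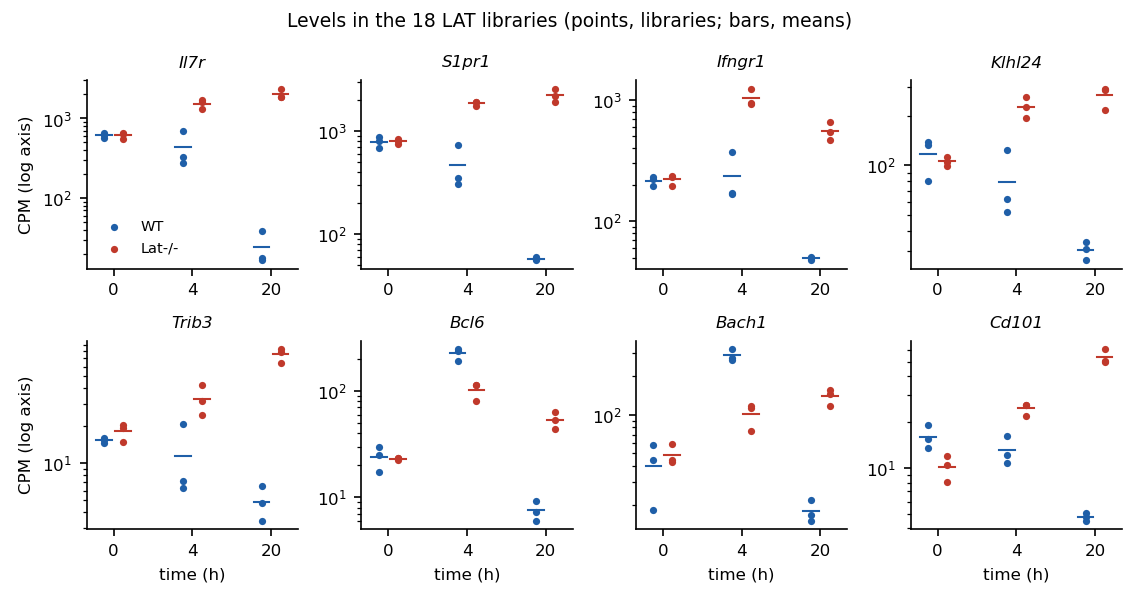
CPM on a log axis in each library of the LAT experiment, 3 per group, by genotype and time for 8 of the 83 genes. WT and Lat-/- points overlap at 0 h except for Cd101, lower in Lat-/- cells there, and are apart at 20 h, as for Il7r at 16.7 to 38.5 against 1868 to 2374 CPM.

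Interferon-induced genes differed between the Lat-/- libraries. Iigp1 (chr18:60376027-60392634, plus strand), an immunity-related GTPase that acts on the vacuoles of intracellular pathogens, was at 54.5, 57.2 and 55 CPM in Lat-/- cells at 0 h, at 192, 44.7 and 193 at 4 h and at 385, 49.6 and 250 at 20 h. Its WT levels were 31.7, 36.1 and 40.6 CPM, then 11.8, 6.5 and 14.7, then 7.19, 7.75 and 12.9. Lat-/- library 2 was below the 0 h range at 4 h and 20 h, so the increase rests on libraries 1 and 3, although library 2 remained above all WT libraries of the same time. Irgm1 (chr11:48861968-48871683, minus strand) and Irgm2 (chr11:58199618-58222782, plus strand) encode regulatory GTPases of the same family. At 20 h, Irgm1 was at 94.3, 23.9 and 74.4 CPM in Lat-/- and 4.78, 5.58 and 6.89 in WT cells, and Irgm2 at 770, 254 and 573 against 37.9, 37.7 and 44.8. Irgm2 overlaps Igtp, another gene of the family, and part of its count may belong there.

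Tgtp1 (chr11:48985327-48994172, minus strand), also a GTPase of the family, was at 104, 38.7 and 90.1 CPM in Lat-/- cells at 4 h and 100, 34 and 94.1 at 20 h from 26.7, 37 and 27.3 at 0 h. The guanylate-binding protein gene Gbp10 went from 2.68 to 3.97 CPM over the Lat-/- 0 h libraries to 28.4 and 18.1 in libraries 1 and 3 at 20 h, while library 2 had 1.8. Ifit1bl1 was at 471, 234 and 454 CPM at 20 h, and in WT cells it went from 115, 117 and 117 at 0 h to 3.79, 3.71 and 6.75. The restriction factor genes Trim5 and Trim34a were at 35.9, 34.7 and 27.4 CPM and at 49.9, 41.1 and 42.3 CPM in Lat-/- cells at 20 h, with library 2 within or close to the range of the others. Ifng, which is not among the 83 and was looked at after these values had been seen, was at 13.0, 1.86 and 5.92 CPM in the Lat-/- 4 h libraries and at 2.64, 0.289 and 3.27 at 20 h, with library 2 the lowest at both times, and at 0.843 CPM or less in the WT libraries of the LAT experiment. Its part in the levels of the interferon-induced genes was not tested.

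**Figure D4:**
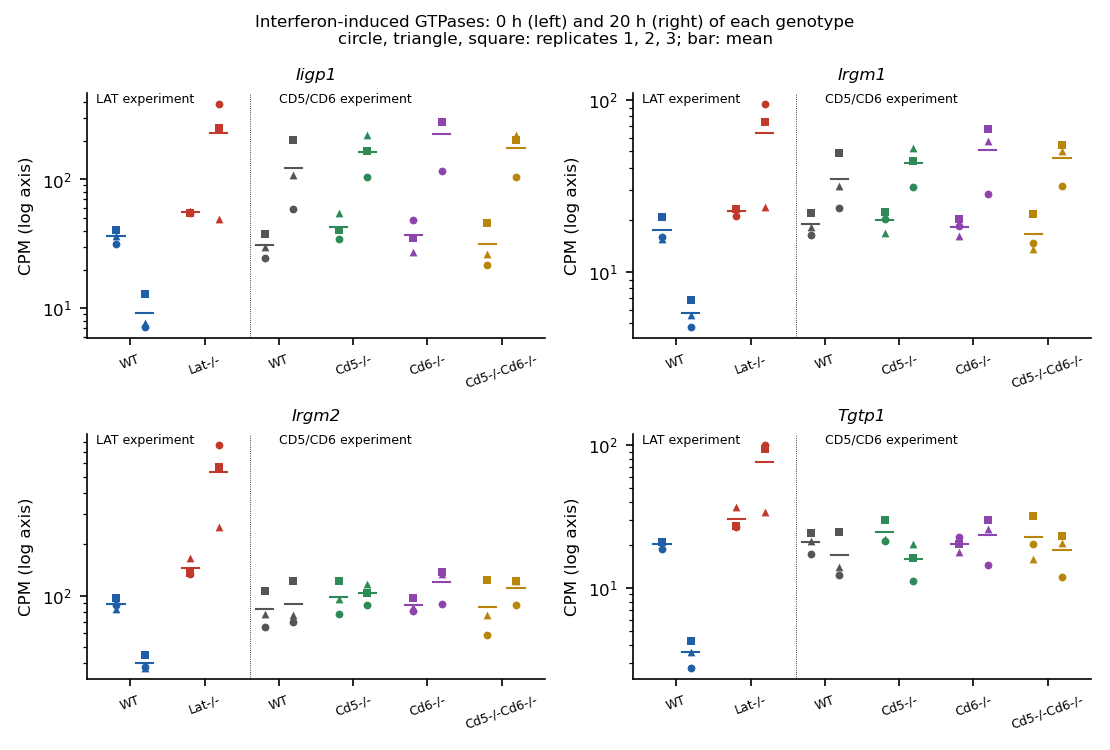
CPM on a log axis of Iigp1, Irgm1, Irgm2 and Tgtp1 in each library at 0 h (left) and 20 h (right) for every genotype of both experiments, with replicates 1, 2 and 3 as circle, triangle and square and the mean as a bar. Lat-/- library 2 is the lowest Lat-/- library at 20 h in all the panels (Iigp1 at 49.6 CPM), and in WT cells Iigp1 ended at 7.19 to 12.9 CPM in the LAT experiment and at 59 to 203 CPM in the CD5/CD6 experiment.

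The first comparison tested set Lat-/- against WT cells at 4 h, in libraries that had no part in the 20 h differences but did count towards the CPM limit, through which they admitted Cldn10. Of the 83 genes, 63 were higher in Lat-/- cells at a fold change over 2 and an adjusted p under 0.05 (edgeR quasi-likelihood test, Benjamini-Hochberg over all genes tested), against 5.51% of the 27780 genes tested. Among the 1816 other genes over the CPM limit that had a WT difference of -1 or less at 20 h, 36.8% were higher, and among the 9932 genes 11.6%. The median log2 fold change was 1.36 over the 83, 0.76 over those 1816 and 0.02 over the 9932. In 68 genes all Lat-/- 4 h libraries were above all WT 4 h libraries, which held for 37.4% of the 9932. Only Bach1 (-1.64 ± 0.15, SE, adjusted p = 5.72e-25) and Bcl6 (-1.27 ± 0.15, adjusted p = 6.01e-15) were lower in Lat-/- cells, with 6.23% of all genes tested called lower.

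Interferon-induced GTPase genes led this comparison. Iigp1 was higher by 3.57 ± 0.17 on the log2 scale (adjusted p = 7.6e-94), Gbp10 by 3.26 ± 0.35 (1.25e-18), Tgtp1 by 3.23 ± 0.18 (3.78e-67), Irgm2 by 2.95 ± 0.16 (3.4e-73) and Irgm1 by 2.88 ± 0.19 (1.98e-51), all adjusted p from edgeR with 3 libraries a group. The SE of Iigp1 is near that of Txnip and Cdkn1b in the same test (each 0.15), although the Lat-/- libraries of Iigp1 differed widely. These p-values therefore do not measure how closely the libraries of a single gene agree. Trim34a (1.53), Trim5 (1.16) and Ifit1bl1 (2.45) were also called. Of the 30 interferon-stimulated genes tested, 24 were higher and 0 lower. Among the 30 are 6 of the 83, and 18 of the 24 higher genes are not among the 83. Gbp2 (3.19), Oasl2 (3.14) and Igtp (3.01) had the largest changes among the others. Gbp10 and Tgtp1 are not in that list.

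Among resting-state receptors, Ifngr1 was higher by 2.00 ± 0.15 (adjusted p = 2.39e-37), S1pr1 by 1.89 ± 0.15 (1.84e-34), Il7r by 1.71 ± 0.15 (1.47e-28), Tnfrsf26 by 1.65 ± 0.15 (6.79e-25) and F2rl1 by 1.55 ± 0.16 (1.49e-21). Of the stress genes, Crebrf (1.95), Ccng2 (1.55), Trib3 (1.42), Klhl24 (1.40), Sesn1 (1.36) and Bbc3 (1.32) were called, and Trp53inp1 was not, at 0.39 ± 0.15. The FOXO and starvation list of 42 tested genes, 10 of them among the 83, had 28 called higher and 1 lower. Outside the 83, 20 of its genes were higher and 0 lower, led by Fbxo32 (2.21), Txnip (2.04) and Cdkn1b (1.84). The 1 lower gene of the list was Bcl6, which is among the 83. A list of 22 ubiquitin ligase and decay genes, 7 of them among the 83, had 7 higher and 1 lower. Siah3 (1.82), Dtx4 (1.81), Mex3b (1.28) and Klhl6 (1.26) were called and Znrf2 was at 0.55. Outside the 83, 1 gene of this list was higher and 1 lower.

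The other lists held 3 or fewer of the 83 genes. Called higher and lower were 10 and 3 of 21 receptor genes, 12 and 3 of 26 homing genes, where Rgs10 (1.10) belongs, 9 and 7 of 28 quiescence and memory transcription factors, 3 and 6 of 17 BCL2 family genes, 2 and 4 of 21 p53 targets, 5 and 1 of 20 NOTCH pathway genes, 7 and 5 of 22 TGF-beta pathway genes, 10 and 2 of 31 PI3K and RAS genes, 2 and 8 of 21 ATF4 targets, and 6 and 5 of 26 glycan enzymes. St8sia6 (1.51) and Arsb (1.34) were called among the last. The 2 higher p53 targets were Bbc3 and Sesn1, and the 2 higher ATF4 targets Trib3 and Crebrf, so in both lists the genes higher in Lat-/- cells were among the 83 and more of the others were lower.

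Further genes higher in Lat-/- cells at 4 h were the noncanonical poly(A) polymerase gene Tent5c (1.75), Rflnb (1.98), Tdrp (1.88), Nacc2 (1.87), Zbtb42 (1.57), Pou6f1 (1.54), Fam49a (1.59), Patj (1.36), Nipal1 (1.36), Tsc22d1 (1.31), the matrix metalloproteinase gene Mmp15 (1.31), the integrin gene Itga7 (1.499), Cnga1 (1.71), Art4 (2.32), Rnf32 (2.84), the prohormone convertase gene Pcsk1 (1.47), Klrd1 (1.56), Fcgr3 (1.95), Tmem71 (1.12), the vacuolar ATPase subunit gene Atp6v1d (1.13), the small GTPase gene Rhob (1.10), Ttyh3 (1.04), Gdpd3 (1.03) and the deubiquitinase gene Usp28 (1.01). The protein-coding genes Gm14085 (2.19) and Gm8369 (1.51) were called too. Of the 14 genes not annotated as protein-coding, Gm15675 (2.43), E230032D23Rik (1.91), Bambi-ps1 (1.81), Gm49492 (1.58), Gm10640 (1.45), Gm9889 (1.38), Gm16534 (1.34), Gm48876 (1.34), Gm37065 (1.26), Gm26740 (1.05) and Gm12474 (1.03) were called. The 18 genes not called in either direction had values from -0.51 (Cldn10) to 0.94 (Adamtsl4). They were Acsbg1 (0.79), Cd101 (0.79), Cdc25b (0.90), Dap (0.80), Fmo5 (0.89), Gprc5b (0.17), H2-Ob (0.33), Itih5 (0.67), Mtss1 (0.19), Ncmap (0.06), Sdcbp2 (0.72), Trp53inp1, Znrf2, 2410006H16Rik (0.92), BC106179 (0.67) and Gm28809 (0.93) beside Cldn10 and Adamtsl4. Without replicate 3, whose WT library stood apart, 68 of the 83 were higher with a median of 1.77, and without the TMM scaling factors, a change that moves every gene by 0.13 on the log2 scale, 68 were higher with a median of 1.49.

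Some of the genes also mark other cell types. Klrd1 belongs to the NK cell list, whose summed level in the LAT experiment was 15.2 to 15.5 CPM in WT and 108 to 153 CPM in Lat-/- cells at 20 h, with Ncr1 and Klra4 at 0 in all Lat-/- 20 h libraries. Most of that Lat-/- sum is Klrd1 and the perforin gene Prf1 (3.03 to 5.30 CPM in WT and 55.6 to 88.3 in Lat-/- cells), and the 8 other genes of the list summed to 1.59 to 5.60 CPM in Lat-/- cells. Klrd1 itself was at 0.848, 0.936 and 0.419 CPM in WT and 50.1, 64.8 and 59.4 in Lat-/- cells at 20 h. At 0 h the NK sum was 92.0 to 129 CPM in WT and 151 to 185 CPM in Lat-/- cells, so the Lat-/- sum did not rise by 20 h. Prf1 was at 120 to 155 CPM in Lat-/- cells at 0 h and thus fell, whereas Klrd1 rose from a mean of 23.7 CPM. Fcgr3 (0.402, 0.0374 and 0.186 against 13.6, 14.8 and 11.1 CPM) belongs to the myeloid list, whose sum was 72.3 to 76.3 against 82.1 to 107 CPM, with Cd14, S100a8 and S100a9 at 0 in all libraries of both groups. Cst3 carries the myeloid sum (69.5 to 73.2 against 65.7 to 93.0 CPM), and without Cst3 and Fcgr3 the 12 other genes summed to 2.01 to 2.88 against 2.46 to 3.32 CPM. H2-Ob, a class II accessory chain gene of B cells, was at 3.97, 3.11 and 4.42 against 102, 140 and 134 CPM, beside a B cell list sum of 309 to 351 against 854 to 1148 CPM in which Pax5, Cd22 and Fcer2a were at 0 in all libraries of both groups. Ighm alone made up nearly all of the B cell sum (304 to 347 against 852 to 1150 CPM). The 11 other genes of the list summed to 3.93 to 5.43 CPM in WT and 2.60 to 3.23 CPM in Lat-/- cells. At 0 h the B cell sum was 772 to 969 CPM in WT and 1110 to 1195 CPM in Lat-/- cells, so it did not rise in Lat-/- cells either. The myeloid sum of Lat-/- cells was 79.8 to 87.5 CPM at 0 h, a range that overlaps that of 20 h. A regulatory T cell list summed to 279 to 321 CPM in WT and 135 to 175 CPM in Lat-/- cells at 0 h, and to 700 to 758 against 166 to 241 CPM at 20 h. In bulk RNA, fewer cells of a type and less RNA per cell cannot be told apart, and the part of such cells in these levels was not tested.

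A second comparison, in libraries with no part in the choice, was the 20 h response of CD5/CD6-experiment WT cells, in which 74 of the 83 genes were lower and 2 higher than at 0 h by the same test and limits, against 17.3% and 12.3% of the 32290 genes tested. Of the 1816 other genes with a WT difference of -1 or less in the LAT experiment, 93.8% were lower, so the share of the 83 was close to that of WT-falling genes in general. The median log2 fold change was -2.73 over the 83 and -1.90 over the 1816. The largest decreases of genes averaging 50 counts or more were those of Gm15675 (-6.59), Cnga1, a cyclic nucleotide-gated channel gene (-6.25 ± 0.34), Il7r (-5.85 ± 0.26, adjusted p = 1.62e-32), Gm9889 (-5.80) and Gm10640 (-5.74), and the 20 h levels of the 3 Gm genes rest on a few reads per library. Il7r was at 745, 640 and 596 CPM at 0 h, 120, 267 and 306 at 4 h and 11.5, 10.2 and 9.29 at 20 h. S1pr1 fell by 5.41 on the log2 scale, from 989, 867 and 842 CPM to 25.5, 16.3 and 15.6.

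The interferon-induced GTPase genes were the exceptions. Iigp1 was at 24.7, 30.1 and 37.9 CPM at 0 h, 24.9, 76.4 and 105 at 4 h and 59, 108 and 203 at 20 h, and was higher at 20 h by 2.13 ± 0.41 (edgeR, adjusted p = 7.51e-06). The 20 h libraries of Iigp1 did not overlap the 0 h libraries, whereas in WT cells of the LAT experiment they lay below them. Irgm1 was at 16.4, 18.2 and 21.9 CPM at 0 h and 23.5, 31.7 and 48.8 at 20 h, higher by 1.01 ± 0.30 (adjusted p = 0.00414), a call that is lost with the replicate number as a block, without replicate 2 or 3, without TMM factors, with RLE factors and in DESeq2. Irgm2 (0.24), Gbp10 (0.01) and Tgtp1 (-0.17) were not called. The remaining interferon-induced genes fell, with log2 fold changes of -4.602 for Ifit1bl1, -4.10 for Trim5 and -2.66 for Trim34a. Of the 30 interferon-stimulated genes, 22 were lower and 4 higher. Outside the 83, 19 were lower and 2 higher, with Rsad2 (-6.96), Rtp4 (-6.19) and Irf7 (-5.97) changed most. Ifng was at 0.692, 2.70 and 0.858 CPM at 0 h and 0.96, 3.97 and 5.31 at 20 h in these cells.

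Beside Irgm2, Gbp10 and Tgtp1, the genes not called were Rgs10 (-0.88), Sdcbp2 (-0.75), Trib3 (-0.75) and 2410006H16Rik (-0.98). Of the stress genes, Klhl24 fell by 3.00, Ccng2 by 2.91, Crebrf by 2.48, Trp53inp1 by 2.08, Sesn1 by 1.80 and Bbc3 by 1.605 on the log2 scale. The FOXO list had 33 genes lower and 1 higher. Outside the 83, 24 of its genes were lower and 1 higher, led by Tsc22d3 (-6.58), Txnip (-5.23) and Klf2 (-5.18). The lists of receptors (14 lower, 3 higher), homing genes (15 and 4), transcription factors (18 and 2), NOTCH (12 and 2), TGF-beta (13 and 0), PI3K (8 and 4), glycan enzymes (12 and 5) and ubiquitin ligase and decay genes (13 and 0) had more genes lower than higher. In the BCL2 (4 and 8), p53 (4 and 9) and ATF4 (4 and 10) lists, more genes were higher than lower.

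H2-Ob fell by 5.55, Klrd1 by 5.28 and Fcgr3 by 5.22 on the log2 scale in these WT cells. The B cell list sum there went from 1030 to 2571 CPM over the 0 h libraries to 308 to 390 CPM at 20 h, the myeloid sum from 250 to 521 to 66.0 to 94.6, the NK sum from 115 to 189 to 14.2 to 19.8, and the erythroid and platelet sum, which had the largest relative decrease of the 4, from 955 to 2003 to 7.17 to 36.2. Ms4a1 and Lyz2, singled out after their values had been seen, were at 26.3 to 147 CPM and 45.0 to 164 CPM at 0 h and at 0.644 and 0.216 CPM or less at 20 h. In the LAT experiment both were at 0.737 CPM or less in every library. The part of these cell types in the decrease of H2-Ob, Klrd1 and Fcgr3 was not tested. Gdpd3 (chr7:126766334-126775649, plus strand), a glycerophosphodiester phosphodiesterase family gene, was at 133, 196 and 147 CPM in WT cells of the LAT experiment at 0 h but at 0.437, 0.762 and 0.581 CPM in those of the CD5/CD6 experiment. The WT cells of the experiments differ in Lat allele, Cre transgene and way of purification, and the cause of this difference was not tested. Gm16534 was at 0 in all 3 libraries of CD5/CD6-experiment WT cells at 20 h. Folds of Gdpd3 and Gm16534 in the CD5/CD6 experiment thus rest on few reads.

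Putting the comparisons side by side, 56 of the 83 genes were both lower at 20 h in the WT CD5/CD6 libraries and higher in Lat-/- cells at 4 h, and 27 were not. Both calls were made for 3.7% of the 26861 genes tested in both experiments, for 7.94% of the 9932 genes over the CPM limit and for 35.2% of the 1816 other genes with a WT difference of -1 or less.

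**Figure D5:**
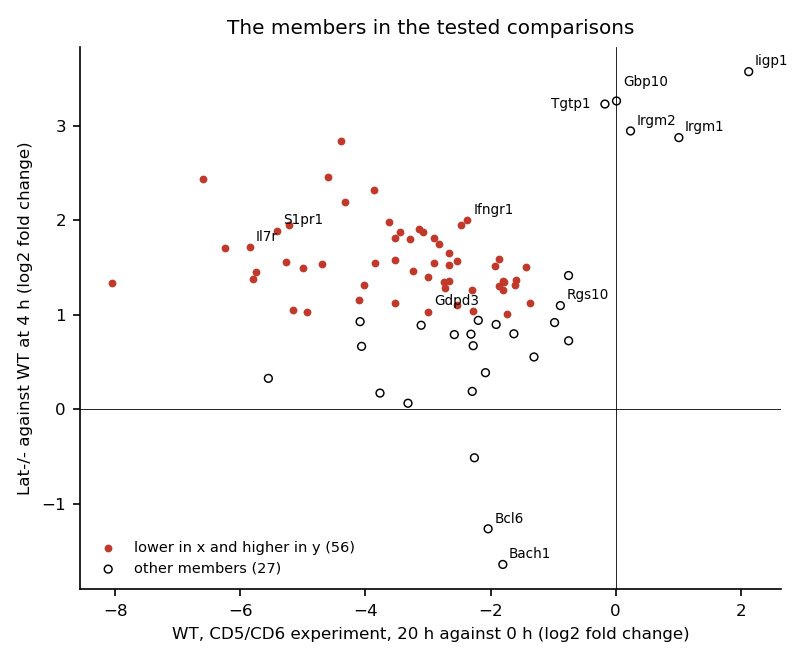
Log2 fold change of the 83 genes in the tested comparisons, with WT CD5/CD6 libraries at 20 h against 0 h on the x axis and Lat-/- against WT at 4 h on the y axis, with the 56 genes called lower on x and higher on y in red and the other 27 as open circles. The 5 GTPase genes sit at the top right, Bcl6 and Bach1 at the bottom, and the leftmost point, Gm16534, rests on a group at 0.

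By time, 45 of the 83 genes were already lower at 4 h in CD5/CD6-experiment WT cells (11.1% of all genes tested) and 5 were higher (8.24%), with a median of -1.20. The 5 were Bcl6 (3.17 ± 0.19), Bach1 (2.85 ± 0.17), Iigp1 (1.38 ± 0.40), Pcsk1 (1.05 ± 0.33) and Irgm2 (1.01 ± 0.27). Of the 1816 other genes with a WT difference of -1 or less in the LAT experiment, 56.9% were lower at 4 h, against 54.2% of the 83. The same-numbered libraries of this comparison deviated together, though the labels do not say whether they are paired. With the replicate number as a block, Irgm2 was at 0.95 and no longer called. Without TMM factors, a change that moves every gene by -0.25 here, 57 were lower, and Bcl6 and Bach1 alone were higher. Between 4 h and 20 h, 53 were lower (12.2%) and 0 higher (8.74%), with a median of -1.80. Bcl6 (-5.21), Gm15675 (-5.16), Bach1 (-4.66), Il7r (-4.58) and Pcsk1 (-4.28) had the largest decreases. Among the same 1816 other genes, 42.1% were lower between 4 h and 20 h, against 63.9% of the 83. Bcl6 was at 25.9, 29.6 and 34.3 CPM at 0 h, 249, 234 and 202 at 4 h and 5.82, 8.76 and 5.31 at 20 h, and Bach1 at 68.7, 57.2 and 55.5, then 352, 391 and 363, then 15.2, 16.4 and 15.5. In WT cells of both experiments, every 4 h library of this pair was thus above every 0 h and 20 h library.

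Most of the 83 genes were also lower at 20 h in cells without CD5, without CD6 or without both. In Cd5-/- cells 74 were lower (17.5% of all genes tested) and 2 higher (12.5%) at 20 h, with a median of -3.12. In Cd6-/- cells 77 were lower (16.8%) and 2 higher (11.4%), with a median of -2.75. In Cd5-/-Cd6-/- cells 74 were lower (18.0%) and 3 higher (12.3%), with a median of -2.94. Of the 1816 other genes with a WT difference of -1 or less in the LAT experiment, 93.9%, 93.7% and 93.1% were lower in these genotypes. The shares of the 83 were 89.2%, 92.8% and 89.2%, close to those of WT-falling genes in general. Without the pair of 0 h libraries that go against their labels, the counts were 74 and 2 in Cd5-/- and 78 and 2 in Cd6-/- cells, Sdcbp2 being the added call, and the medians were -3.15 and -2.74. Iigp1 was higher in every genotype, by 2.08, 2.73 and 2.67 in the order given, as was Irgm1 by 1.23, 1.62 and 1.64, and Gbp10 was called in the last (1.10 ± 0.45, adjusted p = 0.0423). Without the same pair of libraries, Iigp1 was higher by 2.19 in Cd5-/- and 2.51 in Cd6-/- cells and Irgm1 by 1.05 and 1.49. The call of Irgm1 in Cd5-/- cells is lost without replicate 2 (0.87), and that of Gbp10 in Cd5-/-Cd6-/- cells without replicate 2, without TMM factors, with RLE factors, with edgeR's filterByExpr and in DESeq2. Whether Gbp10 differed between the genotypes' responses was tested for Cd5-/-Cd6-/- minus WT and gave 1.09 ± 0.63, which was not called.

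Against WT at 20 h, 0 of the 83 genes were called by edgeR in Cd5-/- (0.0124% of genes higher and 0.00619% lower), Cd6-/- (0.0155% and 0.0031%) or Cd5-/-Cd6-/- cells (0.0124% and 0.031%), nor in the response difference between Cd5-/-Cd6-/- and WT cells (0% and 0%). By the unadjusted p alone, 15, 7, 10 and 2 of them passed 0.05, which is 18.1%, 8.43%, 12.0% and 2.41% of the 83. The shares were 2.24%, 1.68%, 2.3% and 1.73% of all genes tested and 2.58%, 1.13%, 3.19% and 1.3% of the 9932 genes over the CPM limit. DESeq2 called 0 of the 83 in each. Medians of the log2 fold change over the 83 were -0.20, 0.08, -0.14 and -0.11. For Il7r the 3 genotypes differed from WT at 20 h by -0.22 ± 0.22, 0.51 ± 0.22 and 0.17 ± 0.22, and for S1pr1 by -0.64 ± 0.20, 0.17 ± 0.20 and -0.26 ± 0.20.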

How the data were processed

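Gene-level read counts, 3 libraries in each of 18 groups, were deposited by the authors as whole-number counts per gene. Per the labels and the submitters' processing notes, single-end reads of stranded mRNA libraries were demultiplexed with bcl2fastq 2.17.1.14, aligned with STAR to GRCm38 (mm10) and counted with featureCounts; DESeq2 is also named there. No normalization had been applied. CPM was computed as count × 1000000 / library total, and the choice of genes used group means of log2(CPM + 1). The 83 genes and all gene lists were chosen with earlier results of these data known. The tests were edgeR 4.0.16 quasi-likelihood tests in R 4.3.3 with TMM factors, run separately on each experiment over genes with at least 1 read, with all its groups in the fit, and Benjamini-Hochberg adjustment over all genes tested. Calls required a fold change over 2 together with an adjusted p under 0.05, and errors are SE. DESeq2 1.42.0 was an alternative. The procedures were tested on simulated data. All 83 genes entered each test.

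Values in every library were given for genes in a list, for the 12 with the highest mean CPM and for the 10 with the largest gap between the genotypes' 20 h differences, and for each test up to 5 genes per direction averaging 50 counts or more and up to 3 further genes per list were named. Same-numbered libraries deviated together (every correlation over 0.1) for Cd5-/- 20 h against 0 h, WT 4 h against 0 h in the CD5/CD6 experiment, and Cd5-/- and Cd5-/-Cd6-/- against WT at 20 h; the numbers come from the sample titles. Intervals cover counting and library error only. Library totals of 17784644 to 45222554 put a floor of 3 counts at 0.0663 to 0.169 CPM. Leaving out the pair of 0 h libraries that go against their labels and the interferon motifs were chosen after seeing the data. Gene coordinates are those of GENCODE M21 on GRCm38.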

Additional observations from a re-analysis of the deposited data

Results flagged for a closer look

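For 79 of the 83 genes, every WT 20 h library was below and every Lat-/- 20 h library above its own 0 h libraries, which held for 7.21% of the 9932 genes over the CPM limit. The choice of genes from these same libraries fixes that direction, and the difference was not tested. At 4 h, 13 of the 83 genes showed the same opposite movement in every library (2.39% of the 9932), and that difference was not tested either, because it shares the 0 h libraries with the choice.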

How the results depend on the processing

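The number of genes chosen moved from 83 to 52 with a pseudocount of 5, to 14 with limits of 1.5 and to 380 with limits of 0.5, and lay between 75 and 114 when a replicate was left out. Without replicate 1, 70 of the 83 remained and Iigp1, Irgm1, Tgtp1 and Gbp10 were among the 13 lost; without replicate 2, 65 remained, and without replicate 3, 76. TMM or RLE factors gave 94 each, sharing 82 and 81 with the 83. Lat-/- against WT at 4 h had between 59 and 70 genes called over its alternatives with the fold limit and 76 on the adjusted p alone, and 67 of the 83 genes kept their call or lack of it in all that kept the fold limit; for CD5/CD6-experiment WT cells at 20 h this held for 80 of 83. With the replicate number as a block, 65 genes were called at 4 h, as without it, and 75 in place of 76 in CD5/CD6-experiment WT cells at 20 h. Where same-numbered libraries deviated together, the block changed the calls of Irgm2 (lost) and Gm26740 (gained) in WT cells at 4 h. Against WT at 20 h, between 0 and 1 gene was called with a replicate left out in Cd5-/- cells (BC106179, without replicate 2), in Cd6-/- cells and in the response difference (Iigp1, without replicate 3 in both). No call reversed its direction. Genes at a few CPM, such as Siah3, Dtx4 and Gm16534 in WT cells at 20 h, are limited by depth.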
